A study of Sus scrofa with 2 samples.

Results

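The genes described here are 51 genes of the cell division cycle: 24 that act in mitosis, 25 that act in DNA synthesis (S phase), and EZH2 and MYBL1, which were kept apart. Of these, 48 were matched to a row among the 25880 genes of the count tables, 43 by symbol and 5 by gene ID (BUB1, KIF23, CDK1, CIT and KIF4A). They comprised 22 of the 24 mitotic genes, 24 of the 25 S phase genes, EZH2 and MYBL1. MKI67, KNL1 and RRM2 were not matched and are not analysed here. Together the 48 genes held 23898 counted molecules in the wild type library, 0.139% of its total, and 19791 in the knockout library, 0.131%.

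The study profiled single nuclei of pig olfactory neuroepithelium from newborn piglets of 2 genotypes, wild type and CFTR knock out, and its title names progenitor proliferation as the question. CFTR is the chloride channel that is mutated in cystic fibrosis. Tissue was frozen, sectioned and homogenized in a citric acid buffer, and the nuclei were captured with droplet chemistry from 10x Genomics, which tags each RNA molecule with a unique molecular identifier (UMI). Each genotype is represented by 1 library, the labels do not say how many piglets it came from, and genotype and library cannot be told apart, so no test was run between genotypes and the 95% intervals given cover counting error only.

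A dividing cell copies its DNA in S phase, condenses the copied chromosomes, attaches them to a spindle of microtubules through kinetochores, and splits in cytokinesis. The genes for these steps are switched on in turn by E2F, MYB and FOXM1 transcription factors. In the olfactory epithelium, globose basal cells divide to replace sensory neurons, horizontal basal cells are a largely quiescent reserve, and mature neurons and multiciliated cells do not divide. Multiciliated cells use part of the division machinery to build centrioles for their cilia without entering mitosis.

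After doublet removal, 4536 wild type nuclei (median 2967 UMIs) and 5761 knockout nuclei (median 2093 UMIs) were kept. Before removal, 8 cell barcodes occurred in both libraries, and 6 wild type and 7 knockout nuclei with these barcodes were kept. The nuclei formed 24 clusters, built without any of the 48 genes and without the other cell cycle genes counted below, so that the levels given here were not used to draw the clusters. 21 clusters were named from markers and formed 15 classes. Clusters 4 and 14, of low depth (192 wild type and 20 knockout nuclei, and 37 and 969), stayed unnamed. A further cluster of 157 wild type and 98 knockout nuclei also stayed unnamed, because 3 immature neuron markers (DCX, STMN2 and DPYSL5) and 3 neuronal precursor markers met the naming criteria. It is called the HES6 cluster after a neurogenic repressor gene, whose level there was 622 CPM (UMIs of the gene per 1000000 UMIs of the class) in wild type and 328 CPM in knockout nuclei, against 13.0 to 72.7 CPM in the immature neuron-like, mature neuron-like, sustentacular-like and ciliated-like clusters. NEUROD1, a neuronal differentiation factor, stood at 84.8 and 43.7 CPM in the HES6 cluster. NEUROG1, a neurogenic factor that acts in precursors, was at 4 UMIs in wild type and 1 UMI in knockout nuclei of this cluster.

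The targeted gene, CFTR, was counted at 86.8 CPM (1497 UMIs) over all wild type nuclei and at 12.7 CPM (193 UMIs) over all knockout nuclei. With wild type first here and below, it stood at 476 and 6.42 CPM in gland-like nuclei and at 1431 and 105 CPM in microvillar or ionocyte-like nuclei. Which exons the molecules came from cannot be read from gene counts. Marker levels were checked against the class names. GNAL, the olfactory G protein, stood at 766 and 707 CPM in mature neuron-like nuclei and at 37.3 and 47.4 CPM in ciliated-like nuclei. DNAH5, a motile cilium dynein, stood at 3685 and 2945 CPM in ciliated-like nuclei, and TP63 at 2061 and 1364 CPM in horizontal basal-like nuclei. Other markers were less selective. STOML3, an olfactory neuron membrane protein, stood at 748 and 363 CPM in mature neuron-like nuclei, 133 and 120 CPM in ciliated-like nuclei, and 903 CPM in wild type nuclei of cluster 4 and 650 CPM in knockout nuclei of cluster 14. FOXJ1, a ciliated cell factor, stood at 104 CPM in knockout ciliated-like nuclei and 108 CPM in knockout nuclei of cluster 14. The knockout library held 463 ciliated-like and 245 secretory-like nuclei and the wild type library 31 and 22.

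The share of nuclei with several mitotic genes was highest in the HES6 cluster. To compare nuclei of unequal depth, each nucleus was thinned at random to 1000 UMIs, shallower nuclei were left out (378 wild type and 1327 knockout), and a nucleus was counted when it held UMIs of at least 2 mitotic genes. In the HES6 cluster 74 of 155 wild type nuclei (47.7%, exact interval 39.7 to 55.9%) and 48 of 97 knockout nuclei (49.5%, 39.2 to 59.8%) met this, with 2 and 1 nuclei left out. Without thinning the shares were 68.8% and 67.3%. In mature neuron-like nuclei, taken as the background because such neurons are postmitotic, the thinned shares were 16 of 882 (1.81%, 1.04 to 2.93%) and 12 of 878 (1.37%, 0.708 to 2.38%), and the unthinned ones 17.5% and 10.2%. Median depths before thinning were 4009 and 3601.5 UMIs in the HES6 cluster and 3832 and 2890 UMIs in mature neuron-like nuclei.

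The following classes, named here for short without the suffix, lay between these levels. Thinned mitotic shares were 3.36% and 3.21% for immature neurons, 6.86% and 4.17% for sustentacular cells, 4.64% and 2.94% for fibroblasts, and 6.35% and 4.88% for the horizontal basal-like class. They were 4.55% (1 of 22) and 7.85% (19 of 242) for secretory, 6.52% and 7.69% for endothelial, and 1.92% and 8.47% for microvillar or ionocyte nuclei. For glia they were 4.23% and 5.95%, and for macrophages 5.26% and 6.49%. The HES6 cluster held 30.7% of all mitotic-positive wild type nuclei (74 of 241) and 21.4% of those of the knockout library (48 of 224), although it made up 157 of 4536 and 98 of 5761 nuclei. A requirement of at least 5 mitotic genes, chosen after the data were seen, widened the contrast. The HES6 cluster then kept 39 of 155 (25.2%) and 23 of 97 (23.7%) nuclei and mature neuron-like nuclei 0 of 882 and 0 of 878, and the cluster held 59.1% and 39.7% of all nuclei so counted. Taking 3 counts as the limit that a count of 0 allows, these zeros allow shares of up to 0.34% and 0.342%.

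**Figure D1:**
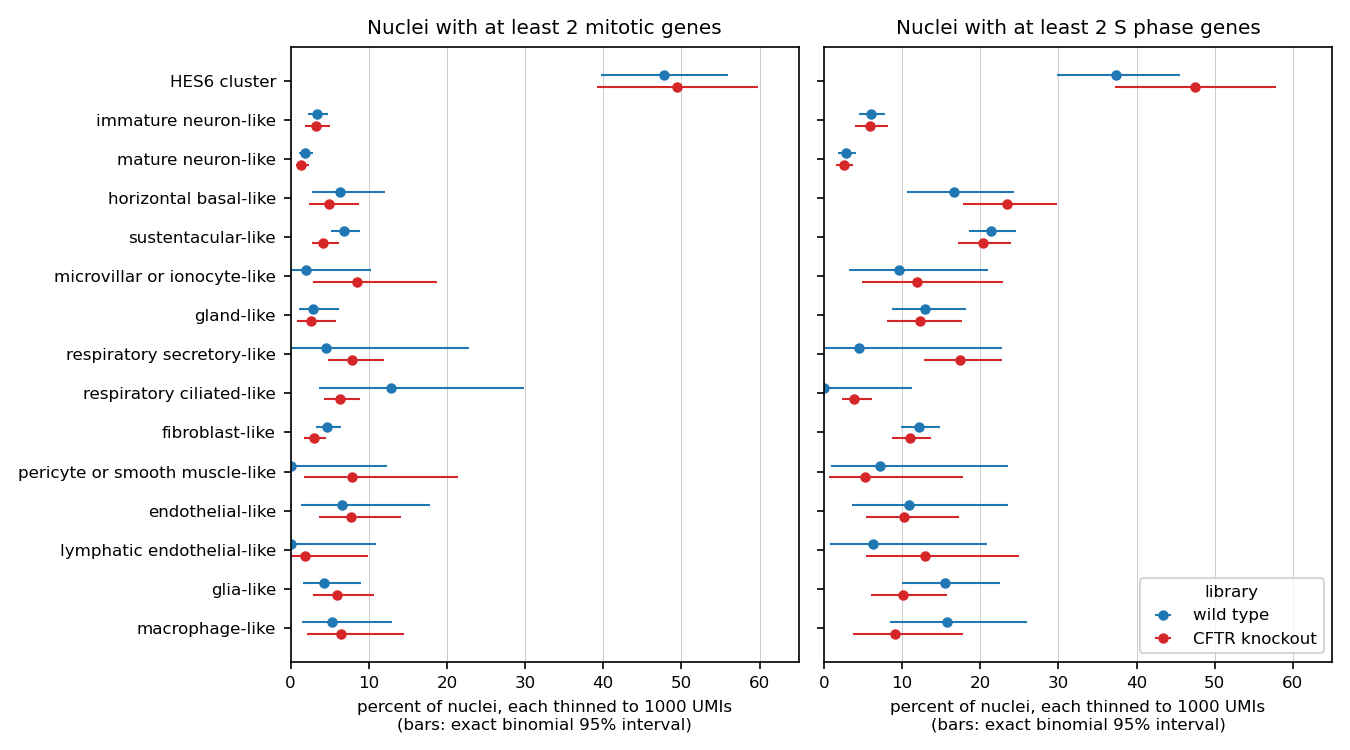
Share of nuclei (percent, x axis) with UMIs of at least 2 mitotic or at least 2 S phase genes after thinning to 1000 UMIs, by class and library, with exact 95% binomial intervals for counting error; cartilage or bone-like nuclei and the unnamed clusters 4 and 14 are not drawn. The HES6 cluster stands at 47.7% and 49.5% for mitotic genes, and sustentacular-like nuclei at 21.4% and 20.3% for S phase genes.

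Gene by gene, all 22 matched mitotic genes were at least 2-fold higher in the HES6 cluster than in mature neuron-like nuclei in both libraries, where all 22 had at least 20 UMIs over the 2 classes. Among all genes tested, 20% of 11580 in the wild type and 17.5% of 10950 in the knockout library were at least 2-fold higher. The median log2 ratio of the 22 genes was 5.38 in wild type and 5.17 in knockout, against 0.15 and 0.11 over all genes tested. Across the classes with at least 50 nuclei, clusters 4 and 14 left out, the HES6 cluster was highest for 22 of 22 mitotic genes in the wild type library (11 classes, background 11.5%) and for 21 of 22 in the knockout library (16 classes, background 6.93%). Its interval was clear of the next class for 20 genes in wild type (background 2.37%) and 9 in knockout (background 0.906%). The exception in the knockout library was KIF23, which was highest in ciliated-like nuclei. The 31 wild type ciliated-like nuclei were too few to be ranked, and KIF23 was higher there too than in the HES6 cluster.

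Among genes that shape chromosomes, TOP2A, the topoisomerase that untangles sister chromatids, stood at 334 CPM (248 UMIs) in the HES6 cluster against 3.58 CPM (14 UMIs) in mature neuron-like nuclei of the wild type library, 93.2-fold (54.5 to 173). In the knockout library the levels were 306 and 3.83 CPM, 80-fold (43.4 to 164). Of the other named classes with at least 50 nuclei, glia-like nuclei came next in wild type at 36.8 CPM and macrophage-like nuclei in knockout at 74.4 CPM, and neither interval reached that of the HES6 cluster. The shallow cluster 14 stood at 162 CPM in wild type, from 7 UMIs, and at 32.2 CPM in knockout. NCAPG, a condensin subunit, stood at 260 and 341 CPM in the HES6 cluster against 1.79 and 3.48 CPM. SMC4, the core ATPase of condensin, was at 17.7 and 21.2 CPM in mature neuron-like nuclei against 308 and 339 CPM. NUSAP1, a spindle-binding protein, was also present outside the cluster: 283 and 293 CPM in the HES6 cluster, 38.4 and 40.0 CPM in mature neuron-like nuclei, and 128 and 239 CPM in gland-like nuclei. NCAPG, SMC4, NUSAP1 and KIF23 are among 17 of the 48 genes that overlap another annotated gene, and the labels do not say whether molecules were assigned by strand. TOP2A has no such overlap.

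Kinetochore and checkpoint genes were at low levels in mature neuron-like nuclei. CENPE, the kinetochore motor, stood at 152 and 188 CPM in the HES6 cluster and at 1.54 CPM (6 UMIs) and 2.78 CPM (8 UMIs) in mature neuron-like nuclei, 99-fold (44.1 to 276) and 67.6-fold (32.8 to 161). CENPF stood at 183 and 232 CPM against 4.61 and 3.48 CPM. The checkpoint kinases followed, BUB1 at 95.6 and 87.5 CPM against 2.30 and 0.348 CPM (9 UMIs and 1 UMI) and BUB1B at 116 and 151 CPM against 1.79 and 2.78 CPM. NDC80, which binds microtubule ends, had a smaller contrast, 158 and 142 CPM against 13.8 and 8 CPM.

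Among further spindle motors and assembly factors the ratios were uneven. KIF18B, a microtubule-depolymerizing motor, gave 89 and 42 UMIs in the HES6 cluster and 1 UMI in mature neuron-like nuclei of each library. KIF11, the motor that separates spindle poles, stood at 159 and 147 CPM against 2.30 and 3.13 CPM, KIF4A at 139 and 136 against 3.33 and 2.09 CPM, and HMMR at 113 and 129 against 1.79 and 1.39 CPM. ASPM, a spindle pole protein, stood at 95.6 and 61.2 CPM against 2.05 and 2.78 CPM. TPX2, which nucleates spindle microtubules, and KIF15 had ratios of 26.7 and 8.45 in wild type and 26.5 and 18.3 in knockout. CDK1, the kinase that drives entry into mitosis, stood at 110 and 87.5 CPM against 2.05 and 3.48 CPM, 53.9-fold (26.1 to 129) and 25.1-fold (12.4 to 56.4).

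The cytokinesis genes were not uniform. DIAPH3, an actin-nucleating formin, stood at 405 and 308 CPM in the HES6 cluster against 3.33 and 2.44 CPM, 122-fold (70.1 to 231) and 127-fold (59.9 to 321). CIT, a midbody kinase, was 30.8-fold and 12.2-fold higher, ANLN, an actin-ring scaffold, 25.5-fold and 15.8-fold, and ECT2, the activator of the contractile ring, 19.8-fold and 27.8-fold. KIF23, the central spindle motor, had the smallest ratio of the 22 mitotic genes in both libraries: 116 against 50.2 CPM in wild type, 2.31-fold (1.77 to 2.99), and 87.5 against 43.1 CPM in knockout, 2.03-fold (1.38 to 2.92).

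**Figure D2:**
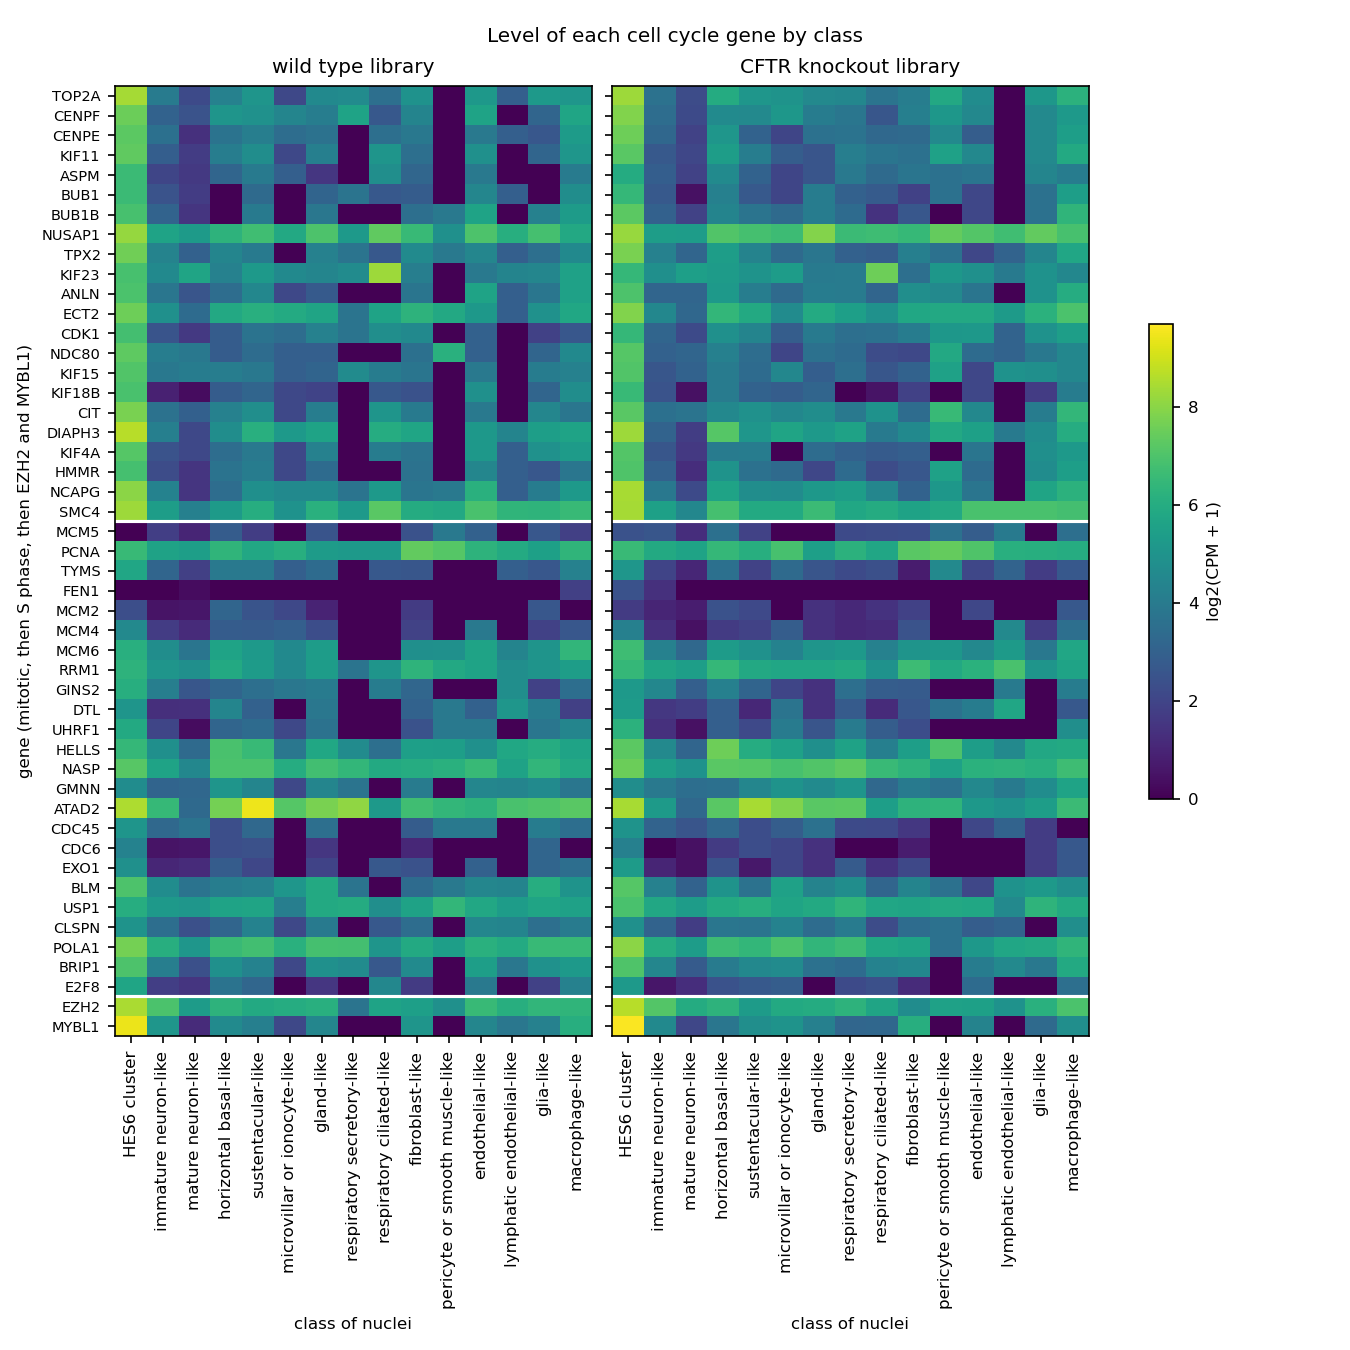
Level of each matched gene (vertical axis) by class (horizontal axis) in each library, as log2(CPM + 1) in colour; cartilage or bone-like nuclei and the unnamed clusters 4 and 14 are not drawn. The HES6 cluster is the brightest column for most mitotic genes, and KIF23 is brightest in ciliated-like nuclei, at 309 CPM in wild type and 188 CPM in knockout.

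S phase genes were found together in the HES6 cluster and also in several other classes. Nuclei with at least 2 S phase genes after thinning made up 37.4% of the HES6 cluster in wild type (58 of 155, 29.8 to 45.5%) and 47.4% in knockout (46 of 97, 37.2 to 57.8%), and 74.5% in each library without thinning. The background in mature neuron-like nuclei was 2.83% and 2.51% (25.1% and 18.9% unthinned). The share was 21.4% (18.5 to 24.5%) and 20.3% (17.1 to 23.9%) in sustentacular-like nuclei, 16.7% and 23.4% in the horizontal basal-like class, 12.9% and 12.2% in the gland-like class, and 12.2% and 11.0% in the fibroblast-like class. It was 4.55% (1 of 22) and 17.4% (42 of 242) in secretory-like, 15.5% and 10.1% in glia-like, and 15.8% and 9.09% in macrophage-like nuclei. In endothelial-like nuclei it was 10.9% and 10.3%, and in microvillar or ionocyte-like nuclei 9.62% and 11.9%. Nuclei with at least 2 genes of each phase at once were 46 of 155 and 29 of 97 in the HES6 cluster, 16 of 743 and 9 of 575 among sustentacular-like nuclei, 2 of 863 and 2 of 529 among immature neuron-like nuclei, and 0 of 882 and 0 of 878 among mature neuron-like nuclei.

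Of the 24 matched S phase genes, 20 had at least 20 UMIs in the comparison of the HES6 cluster with mature neuron-like nuclei in wild type, and 19 of them were at least 2-fold higher. In knockout the numbers were 17 and 16, against backgrounds of 20% and 17.5% of all genes. The median log2 ratios were 3.33 and 3.54, against 0.15 and 0.11 for all genes tested. A filter of this kind keeps genes that are high in either class, so these counts cover the genes that passed it and not the list. The HES6 cluster was the highest class for 15 of 24 S phase genes in wild type (background 11.5%) and 16 of 24 in knockout (background 6.93%), with an interval clear of the next class for 6 (background 2.37%) and 3 (background 0.906%).

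The S phase genes are given in 3 groups by their level in mature neuron-like nuclei as a share of that in the HES6 cluster (under 10%, 10 to 20%, and over 30%), a grouping made after the values were seen. Among those under 10%, UHRF1, which recruits DNA methyltransferase to new DNA, was at 57.9 and 74.3 CPM in the HES6 cluster (43 and 34 UMIs) against 1 UMI in mature neuron-like nuclei of each library. TYMS, the thymidylate synthase, stood at 52.5 and 32.8 CPM against 2.56 and 1.04 CPM. BRIP1 and BLM, helicases of DNA repair, stood at 125 and 131 CPM against 4.10 and 5.91 CPM, and at 127 and 140 CPM against 11.8 and 7.31 CPM. The repair nuclease EXO1 (28.3 and 39.4 CPM against 1.28 and 0.348 CPM) and the repressor E2F8 (51.2 and 37.2 CPM against 1.79 and 1.39 CPM) were in the same group, as was HELLS, a chromatin remodeler, at 86.2 and 151 CPM against 9.22 and 8 CPM.

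In the middle group POLA1, the catalytic subunit of DNA polymerase alpha, stood at 201 and 258 CPM in the HES6 cluster against 33.3 and 39.7 CPM in mature neuron-like nuclei. NASP, a histone chaperone, stood at 145 and 184 CPM against 21.3 and 29.6 CPM. MCM6, a subunit of the replicative helicase, stood at 68.7 and 103 against 12.8 and 8.70 CPM, and GINS2 at 66.0 and 37.2 against 5.12 and 6.61 CPM.

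The third group included PCNA, the sliding clamp of DNA polymerase that is often used as a proliferation marker. It stood at 91.6 and 94.0 CPM in the HES6 cluster against 42.5 and 49.1 CPM in mature neuron-like nuclei, 2.15-fold (1.60 to 2.87) and 1.92-fold (1.33 to 2.71). USP1, a deubiquitinase, was 1.96-fold and 3.03-fold higher, RRM1, a ribonucleotide reductase subunit, 2.83-fold and 2.04-fold, and GMNN, the licensing inhibitor geminin, 3.03-fold and 2.51-fold. Over both libraries, the level in mature neuron-like nuclei was 55.2% of that in the HES6 cluster for MCM5, which had few UMIs, 49.3% for PCNA, 45.9% for KIF23 and 42.6% for RRM1. MCM5, FEN1 and MCM2 had 0 to 3 UMIs in the HES6 cluster of either library, and MCM4, CDC6, DTL, CDC45 and CLSPN had 8 to 24 UMIs there.

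EZH2 and MYBL1 were highest in the HES6 cluster in both libraries, with intervals clear of the next class among those with at least 50 nuclei. MYBL1, a MYB family transcription factor, stood at 677 CPM in wild type (503 UMIs, interval 619 to 739 CPM) and 789 CPM in knockout (361 UMIs), against 1.28 CPM (5 UMIs) and 3.13 CPM (9 UMIs) in mature neuron-like nuclei, 529-fold (lower bound 225) and 252-fold (131 to 556). EZH2, the histone H3 methyltransferase of Polycomb repressive complex, stood at 350 and 402 CPM against 38.7 and 61.2 CPM, 9.06-fold (7.38 to 11.1) and 6.57-fold (5.31 to 8.13).

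Immature neuron-like nuclei differed between these genes. They comprised a cluster led by PURG and TEX15 and a cluster led by GAP43, a growth cone protein. EZH2 was alike in both, at 120 and 145 CPM in the PURG and TEX15 cluster and 123 and 136 CPM in the GAP43 cluster. MYBL1 was at 59.6 and 89.2 CPM in the PURG and TEX15 cluster and at 3.94 and 5.12 CPM in the GAP43 cluster. ATAD2, a chromatin ATPase counted with the S phase genes, was at 153 and 117 CPM in the former and 20.1 and 16.6 CPM in the latter, and NUSAP1 at 65.2 and 56.3 CPM and 30.2 and 37.8 CPM. Over the whole class, 12 of 21 mitotic genes that passed the minimum of UMIs in wild type (background 15%) and 11 of 18 in knockout (background 8.79%) were at least 2-fold above mature neuron-like nuclei. Yet nuclei with at least 5 mitotic genes numbered 1 of 863 and 1 of 529.

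**Figure D3:**
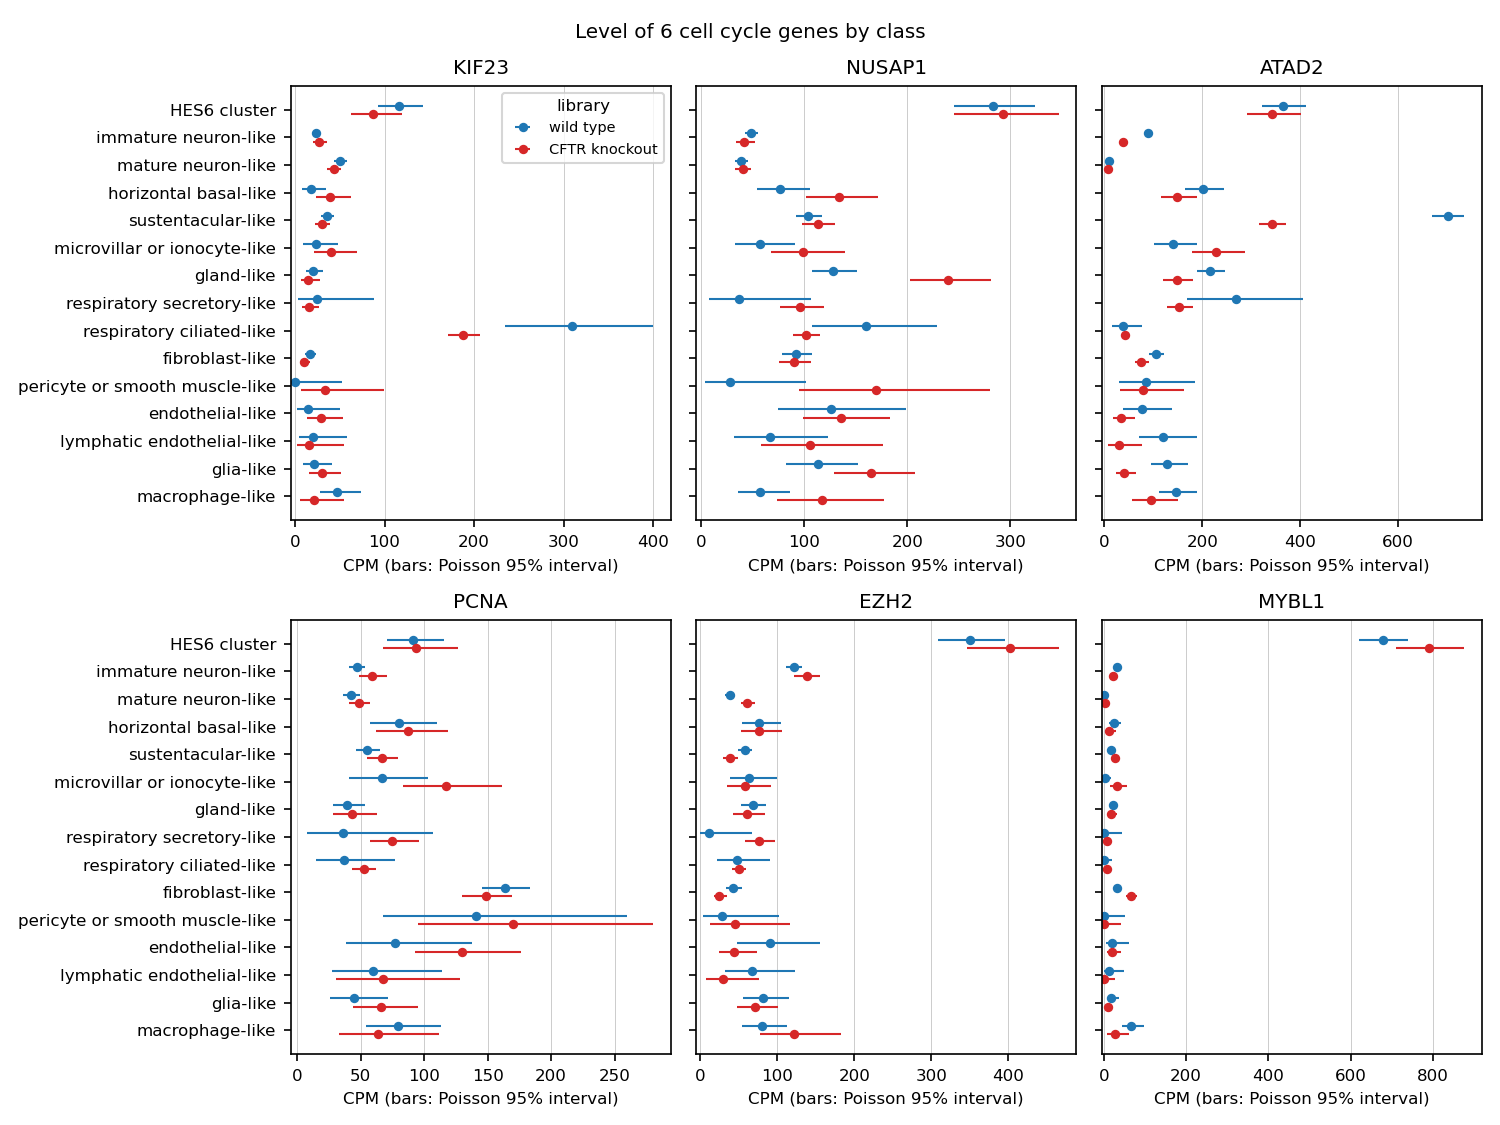
Level in CPM of KIF23, NUSAP1, ATAD2, PCNA, EZH2 and MYBL1 by class in each library, with exact 95% Poisson intervals for counting error; cartilage or bone-like nuclei and the unnamed clusters 4 and 14 are not drawn. EZH2 and MYBL1 peak in the HES6 cluster, KIF23 in ciliated-like nuclei, ATAD2 in sustentacular-like nuclei of the wild type library, and PCNA stands at 164 and 149 CPM in fibroblast-like nuclei.

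Within the HES6 cluster, nuclei with no mitotic gene after thinning were set beside those with at least 2, as a description of the genes the split did not use. The first group held 57 wild type and 34 knockout nuclei (median 3516 and 3027 UMIs) and the other 74 and 48 (median 4560 and 4220 UMIs). ATAD2 stood at 92.6 and 172 CPM in nuclei with no mitotic gene and at 527 and 503 CPM in those with at least 2. BRIP1 went from 41.7 and 55.2 CPM to 181 and 185 CPM. MYBL1 went from 491 and 462 CPM to 824 and 906 CPM and EZH2 from 250 and 241 CPM to 414 and 554 CPM, and even in the nuclei without mitotic genes the levels of both were above those of each other class with at least 50 nuclei. PCNA was at 37.0 and 62.1 CPM in the nuclei without mitotic genes and 120 and 83.9 CPM in the others, with overlapping intervals in the knockout library. MCM6 (64.8 and 96.6 CPM against 70.6 and 109 CPM) and NASP (116 and 117 against 153 and 206 CPM) differed by less than their intervals.

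Further cell cycle genes, from lists of each phase written with earlier results of these data known, were in part higher in the HES6 cluster. Of 42 other G2 and M genes matched, 33 had enough UMIs in wild type and 29 were at least 2-fold above mature neuron-like nuclei, and in knockout 26 of 30. Other S phase genes were higher for 15 of 19 and 13 of 17, and G1 and E2F or RB genes for 10 of 16 and 7 of 14, where 20% and 17.5% of all genes were. CCNB2, a mitotic cyclin, stood at 61.9 and 67.8 CPM against 1.28 and 0.696 CPM, and CDK6, a G1 kinase, at 448 and 328 CPM against 14.3 and 10.4 CPM. CEP152, a scaffold for centriole duplication, reached 1636 and 1190 CPM against 10.2 and 9.39 CPM, 160-fold and 127-fold, and STIL, which acts with it, 500 and 402 CPM against 28.7 and 20.9 CPM. Both, like MYBL1, were left out when the clusters were drawn. All of these are among the leading genes of the cluster, which rests on the same levels as their ratios and is no independent result. Genes of the same lists that were not higher included the condensin subunit NCAPG2, at 232 and 273 CPM against 240 and 248 CPM, and RAD51AP1, at 51.2 and 43.7 CPM against 80.7 and 68.2 CPM. RB1, the retinoblastoma repressor, stood at 140 and 155 CPM against 264 and 280 CPM.

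Respiratory ciliated-like nuclei carried some mitotic genes without the set as a whole. In the knockout library, which held 463 of the 494 such nuclei, 13 of the 18 mitotic genes with enough UMIs were at least 2-fold higher than in mature neuron-like nuclei and 1, NDC80, at least 2-fold lower, against backgrounds of 25.2% higher and 14.8% lower among 12464 genes. The median log2 ratio of the 18 was 1.59 and that of all genes tested 0.23. For S phase genes it was 5 of 13, with a median of 0.40. In the wild type library, with 31 nuclei, 6 of 9 mitotic and 3 of 12 S phase genes were higher, against a background of 19%. Here and in the other comparisons with mature neuron-like nuclei, the minimum of UMIs keeps genes that are high in either class. TOP2A, KIF11, ASPM, CDK1 and CENPE had 8 to 11 UMIs in knockout mature neuron-like nuclei and passed through the ciliated-like nuclei. The counts therefore cover the genes that passed and not the list.

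KIF23 was higher in ciliated-like nuclei than in any other named class. It was at 309 CPM (58 UMIs) in wild type and 188 CPM (448 UMIs) in knockout nuclei, against 50.2 and 43.1 CPM in mature neuron-like nuclei, 6.16-fold (4.52 to 8.30) and 4.36-fold (3.56 to 5.36), and it was 16.6 and 10.5 CPM in fibroblast-like and 20.2 and 14.4 CPM in gland-like nuclei. In both libraries the ciliated-like level was above that in the HES6 cluster, 116 and 87.5 CPM. After thinning, 74 of 492 ciliated-like nuclei of both libraries (15.0%, 12.0 to 18.5%) held a KIF23 UMI, and 3 of those 74 also held at least 2 other mitotic genes. The corresponding numbers were 12 of 14 nuclei in the HES6 cluster and 1 of 82 in mature neuron-like nuclei. Over all thinned ciliated-like nuclei, 6.45% and 3.47% held at least 2 mitotic genes other than KIF23. That share was 47.7% and 49.5% in the HES6 cluster and 1.02% and 0.797% in mature neuron-like nuclei. KIF23 overlaps a long noncoding RNA gene, LOC106509080, in the annotation, and molecules of the 2 genes could not be separated here.

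Other mitotic genes in ciliated-like nuclei were at low levels. In the knockout library SMC4 stood at 60.8 CPM against 21.2 CPM in mature neuron-like nuclei, NUSAP1 at 102 against 40.0 CPM, ECT2 at 29.4 against 8.35 CPM, CIT at 29.8 against 12.2 CPM, NCAPG at 21.0 against 3.48 CPM, and DIAPH3 at 14.7 against 2.44 CPM. KIF11, ASPM, CDK1, CENPE and TOP2A had 21 to 30 UMIs each in ciliated-like nuclei, at 8.81 to 12.6 CPM, and ratios of 3.16 to 4.02. Of 461 such nuclei, the 1 with at least 5 mitotic genes held 64 of 1300 mitotic UMIs (4.92%). Its doublet score was 0.0788 against 0.0317 for the class, and its part in the UMIs of each gene was not counted. TOP2A stood at 12.2 CPM (29 UMIs) there against 306 CPM in the HES6 cluster of the same library. Of the S phase genes, ATAD2 was 4.87-fold higher (42.4 against 8.70 CPM), NASP 3.22-fold (95.2 against 29.6 CPM), BRIP1 3.12-fold, HELLS 2.15-fold and MCM6 2.07-fold. PCNA was at 52.4 CPM against 49.1 CPM, with a ratio interval of 0.833 to 1.37, EZH2 at 50.3 against 61.2 CPM, and RRM1 at 30.2 against 42.8 CPM. MYBL1 had 20 UMIs, 8.39 against 3.13 CPM.

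**Figure D4:**
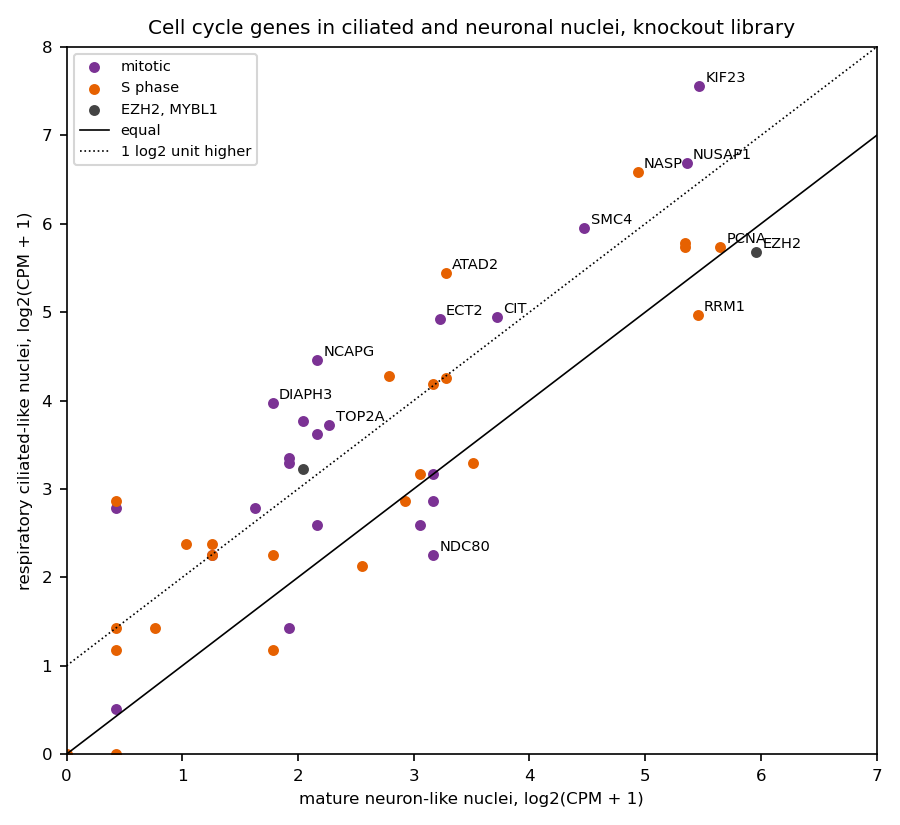
Each of the matched genes as a point, with its level in mature neuron-like nuclei (x axis) and in respiratory ciliated-like nuclei (y axis) of the knockout library, both as log2(CPM + 1). KIF23 is the highest point, at 188 CPM in ciliated-like and 43.1 CPM in mature neuron-like nuclei, and PCNA lies near equal levels at 52.4 and 49.1 CPM.

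The shares of ciliated-like nuclei depended on thinning. They were among the deeper nuclei, with a median of 4875 UMIs in wild type and 3815 in knockout. Without thinning, 74.2% and 43.6% of them held at least 2 mitotic genes. After thinning the shares were 4 of 31 (12.9%, 3.63 to 29.8%) and 29 of 461 (6.29%, 4.25 to 8.91%), and in knockout 16 of the 29 counted nuclei held KIF23. Leaving out KIF23, a choice made after the data were seen, brought the knockout share to 16 of 461 (3.47%), against 0.797% in mature neuron-like nuclei. At least 5 mitotic genes were found in 0 of 31 and 1 of 461. S phase genes were counted in 0 of 31 wild type nuclei, which on the same limit of 3 counts allows a share of up to 9.68%, and in 18 of 461 knockout nuclei (3.90%).

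Of the listed genes for centriole amplification and multiciliated cell fate, 8 of 9 in wild type (background 19%) and 6 of 10 in knockout (background 25.2%) were at least 2-fold above mature neuron-like nuclei. MCIDAS, a geminin-related activator of multiciliogenesis, stood at 304 and 37.7 CPM against 0.512 and 1.74 CPM, MYB at 208 and 91.8 CPM against 2.30 and 3.48 CPM, and DEUP1, the deuterosome scaffold, at 613 and 297 CPM against 73.0 and 62.3 CPM. CDK6 stood at 107 and 109 CPM against 14.3 and 10.4 CPM. Other G2 and M genes were at least 2-fold higher for 7 of 20 (background 25.2%) and lower for 4 of 20 (background 14.8%) in knockout. DLGAP5, a spindle protein, stood at 39.8 against 4.87 CPM, and PRC1, an antiparallel microtubule bundler that works with KIF23 in cytokinesis, at 15.9 against 62.6 CPM. NCAPG2, at 21.4 against 248 CPM, and RAD51AP1, at 4.19 against 68.2 CPM, were far lower than in mature neuron-like nuclei.

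In sustentacular-like nuclei, which carry markers of the supporting cells of the epithelium, ATAD2 had the largest ratio of the S phase genes. Its level there was 701 CPM in wild type (1772 UMIs) and 343 CPM in knockout (613 UMIs), against 8.96 and 8.70 CPM in mature neuron-like nuclei, 78.2-fold (56.0 to 113) and 39.4-fold (26.5 to 61.4). In wild type this exceeded the HES6 cluster at 365 CPM, and in knockout the HES6 cluster level was also 343 CPM. Both sustentacular-like clusters carried it, at 763 and 458 CPM in the cluster led by CPM and CYP2F1 and at 355 and 214 CPM in the cluster led by ACSM3 and GLDN. Of the sustentacular-like nuclei with at least 2 S phase genes, 80.5% in wild type and 65.8% in knockout held ATAD2. Without ATAD2 the S phase share was 10.9% and 10.6%. After thinning, 449 of 1318 sustentacular-like nuclei held ATAD2 and 37 of these held at least 2 mitotic genes, against 42 of 57 in the HES6 cluster. Over all thinned nuclei the mitotic shares were 6.86% and 4.17% in the sustentacular-like class and 47.7% and 49.5% in the HES6 cluster.

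Other members were higher in sustentacular-like than in mature neuron-like nuclei as well, for 14 of 19 S phase and 19 of 22 mitotic genes in wild type (background 22.5%) and 7 of 14 and 17 of 20 in knockout (background 20.9%). NASP stood at 123 and 139 CPM, HELLS at 93.0 and 62.7 CPM, DIAPH3 at 68.8 and 33.0 CPM, and TOP2A at 32.4 and 33.0 CPM. Part of the mitotic molecules lay in few nuclei. Those with at least 5 mitotic genes, 10 of 743 and 9 of 575, held 44.3% and 46.4% of the mitotic UMIs of the class. Choosing nuclei by these genes raises this share by construction. In the HES6 cluster it was 62.5% and 71.3%, from 39 of 155 and 23 of 97 nuclei. The chosen sustentacular-like nuclei had a median doublet score of 0.0597 and 0.0724 against 0.0212 and 0.0269 for the class. They were also deeper, at medians of 5483.5 and 3969 UMIs against 2697 and 2557.5 for the class. When the nuclei were clustered with all variable genes, cell cycle genes included, the knockout count of mitotic genes became 5 of 13. Whether these few nuclei are sustentacular cells was not tested.

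In horizontal basal-like nuclei HELLS stood at 119 and 186 CPM, the highest level in either library among classes of at least 50 nuclei, with intervals that overlapped the next class. NASP stood at 123 and 146 CPM, ATAD2 at 202 and 149 CPM, and POLA1 at 94.8 and 98.4 CPM. Against mature neuron-like nuclei, 8 of 14 S phase and 8 of 12 mitotic genes were at least 2-fold higher in wild type (background 22.3%), and 9 of 12 and 14 of 16 in knockout (background 24.1%). No wild type nucleus of 126 and 7 of 205 knockout nuclei held at least 5 mitotic genes. Those 7, chosen for their mitotic genes, held 319 of the 453 mitotic UMIs of the knockout class. Their median doublet score was 0.0724 against 0.0244 for the class, and their median depth 2331 UMIs against 1688. The knockout class was sensitive to the clustering: with all variable genes, or with doublets kept, 36 and 35 nuclei of sufficient depth carried the name in place of 205, and 0 of either held at least 2 mitotic genes.

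Some members were detected in many nuclei of other classes mostly without several mitotic genes in the same nucleus. PCNA was at 164 CPM (295 UMIs) and 149 CPM (226 UMIs) in fibroblast-like nuclei, above the HES6 cluster with clear intervals in both libraries. Within them it was 214 and 160 CPM in the cluster led by TMEM132C and PID1 and 94.9 and 108 CPM in the cluster led by COL12A1 and ABI3BP. Of 186 fibroblast-like nuclei with a PCNA UMI after thinning, 6 held at least 2 mitotic genes, against 14 of 28 in the HES6 cluster. These lie close to the mitotic shares over all thinned nuclei, 4.64% and 2.94% in the fibroblast-like class and 47.7% and 49.5% in the HES6 cluster. The contrast is thus that between the classes. Over the whole fibroblast-like class, 18 of 21 and 13 of 17 mitotic genes were at least 2-fold above mature neuron-like nuclei (backgrounds 23.7% and 21.9%), with median log2 ratios of 2.02 and 1.73. In gland-like nuclei 63 of 405 held NUSAP1 and 0 of these 63 held at least 2 other mitotic genes, against 41 of 49 in the HES6 cluster. Over all thinned gland-like nuclei, 2.87% and 2.55% held at least 2 mitotic genes, NUSAP1 included. The 0 of 63 thus lies close to the share of the class and sets no gland-like nuclei with NUSAP1 apart. NUSAP1 overlaps NDUFAF1 and OIP5 in the annotation. Mitotic genes were at least 2-fold above mature neuron-like nuclei for 13 of 17 and 9 of 13 in gland-like nuclei (backgrounds 23.6% and 23.7%) and for 12 of 17 and 12 of 13 in macrophage-like nuclei (backgrounds 18.9% and 23.2%). Nuclei with at least 5 mitotic genes held part of these UMIs, a share that choosing them by these genes raises by construction. In the fibroblast-like class 6 of 690 and 2 of 646 nuclei held 40.9% and 30.4% of the mitotic UMIs. In the gland-like class 3 of 209 and 2 of 196 held 37.0% and 36.8%. In the macrophage-like class 2 of 76 and 1 of 77 held 32.1% and 53.7%. Their median doublet scores, against those of the class, were 0.119 against 0.0229 and 0.0547 against 0.0297 in fibroblast-like nuclei. They were 0.0848 against 0.0334 and 0.104 against 0.0388 in gland-like nuclei. In macrophage-like nuclei they were 0.0549 against 0.0525 and 0.0724 against 0.0429. The chosen nuclei were also deeper, in the fibroblast-like class at medians of 3104 and 5026.5 UMIs against 2070 and 1661 for the class. Whether they are doublets was not tested. Among whole classes of at least 50 nuclei other than the HES6 cluster, MYBL1 was highest in macrophage-like nuclei in wild type, 66.9 CPM, and in fibroblast-like nuclei in knockout, 66.5 CPM.

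The levels of the cell cycle genes in the HES6 cluster were close in the 2 libraries, as were those of most genes tested there. None of the 22 mitotic and none of the 21 S phase genes with enough UMIs differed by 2-fold or more between the knockout and the wild type library, where 4.05% of 8491 genes were at least 2-fold higher and 3.83% at least 2-fold lower. The median log2 ratio, knockout over wild type, was -0.01 for mitotic and 0.07 for S phase genes, and 0.04 for all genes tested. The counting interval excluded 1 for a similar share of all genes, 16.6%, and for 8 of 45 members. These were HELLS (151 against 86.2 CPM, ratio 1.75, 1.23 to 2.50), USP1 (120 against 64.6 CPM, ratio 1.86), NCAPG (ratio 1.31), POLA1 (1.29) and MYBL1 (1.17), which were higher in knockout, and GINS2 (ratio 0.563), CIT (0.699) and DIAPH3 (0.761), which were lower. The share of mitotic-positive nuclei was 47.7% and 49.5%, with overlapping intervals, and that of S phase-positive nuclei 37.4% and 47.4%, also overlapping.

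Larger ratios between libraries occurred in other classes. Of 13 mitotic genes in horizontal basal-like nuclei, 10 were at least 2-fold higher in knockout (background 8.87%), with a median log2 ratio of 1.36 against 0.12 for all genes. DIAPH3 stood at 142 against 26.2 CPM, a ratio of 5.42 (2.96 to 10.7), TOP2A at 61.2 against 18.1 CPM, a ratio of 3.37 (1.55 to 8.13), NCAPG at 48.1 against 10.1 CPM, and SMC4 at 114 against 38.3 CPM. As given above, 7 nuclei held most of the mitotic UMIs of the knockout class, and the clustering moved its membership. At resolution 2 the class split into a cluster with NRCAM and CYP24A1 among its leading genes, of 107 wild type and 37 knockout nuclei, and a cluster with SULT1E1 and EPHA6, of 24 and 198, so the libraries' nuclei lay mostly in different clusters. With at least 50 UMIs required, 2 of 11 mitotic and S phase genes differed by 2-fold in place of 11 of 24. The share of nuclei with at least 2 mitotic genes was 6.35% in wild type and 4.88% in knockout. Of the S phase genes, 0 of 11 were higher and 1, GMNN, was lower (10.9 against 32.3 CPM, background 6.59%).

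In sustentacular-like nuclei 3 of 22 mitotic and 6 of 19 S phase genes were at least 2-fold lower in knockout (background 3.69%) and 0 were at least 2-fold higher (background 4.82%). ATAD2 stood at 343 against 701 CPM, a ratio of 0.489 (0.446 to 0.537), and it was lower in each of the 2 sustentacular-like clusters, which held unequal shares of the libraries: 652 wild type and 350 knockout nuclei in the CPM and CYP2F1 cluster and 109 and 254 in the ACSM3 and GLDN cluster. DIAPH3 stood at 33.0 against 68.8 CPM, TYMS at 2.80 against 14.2 CPM and DTL at 1.12 against 7.12 CPM. ATAD2 was lower in the knockout library in immature neuron-like nuclei too, 38.2 against 89.8 CPM, a ratio of 0.426 (0.329 to 0.544). There the clusters also differed in size, and within the PURG and TEX15 cluster it was 117 against 153 CPM with overlapping intervals.

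In fibroblast-like nuclei 17 of 20 mitotic genes had ratios below 1, with a median log2 ratio of -0.59, and 4 were at least 2-fold lower (background 4.72%) and 1, ANLN, at least 2-fold higher (background 6.37%). At resolution 2 the fibroblast-like name covered, among others, clusters with 252 nuclei from wild type against 4 from knockout, and with 21 against 325, so here too the libraries' nuclei lay partly in different clusters. In macrophage-like nuclei 6 of 14 mitotic genes were at least 2-fold higher in knockout (background 10.9%) and 1 lower (background 13.5%), and the 1 knockout nucleus with at least 5 mitotic genes held 53.7% of the mitotic UMIs. In ciliated-like nuclei 5 of 12 mitotic genes were at least 2-fold lower in knockout (background 4.01%) and 0 at least 2-fold higher (background 17.5%). KIF23 stood at 188 against 309 CPM, a ratio of 0.607. Of the S phase genes there, 1 of 10 was at least 2-fold higher and 0 lower, with a median log2 ratio of 0.59 against -0.78 for the mitotic genes. The wild type values there come from 31 nuclei. In mature neuron-like nuclei 1 of 12 mitotic genes was at least 2-fold lower (background 3.25%) and 0 at least 2-fold higher (background 5.02%). EZH2 was at 61.2 against 38.7 CPM there, a ratio of 1.58 (1.27 to 1.98). One mature neuron-like cluster held 799 wild type and 126 knockout nuclei and the other 106 and 777, and the EZH2 levels, knockout against wild type, were 62.2 against 39.0 CPM in the former and 61.0 against 34.1 CPM in the latter.

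**Figure D5:**
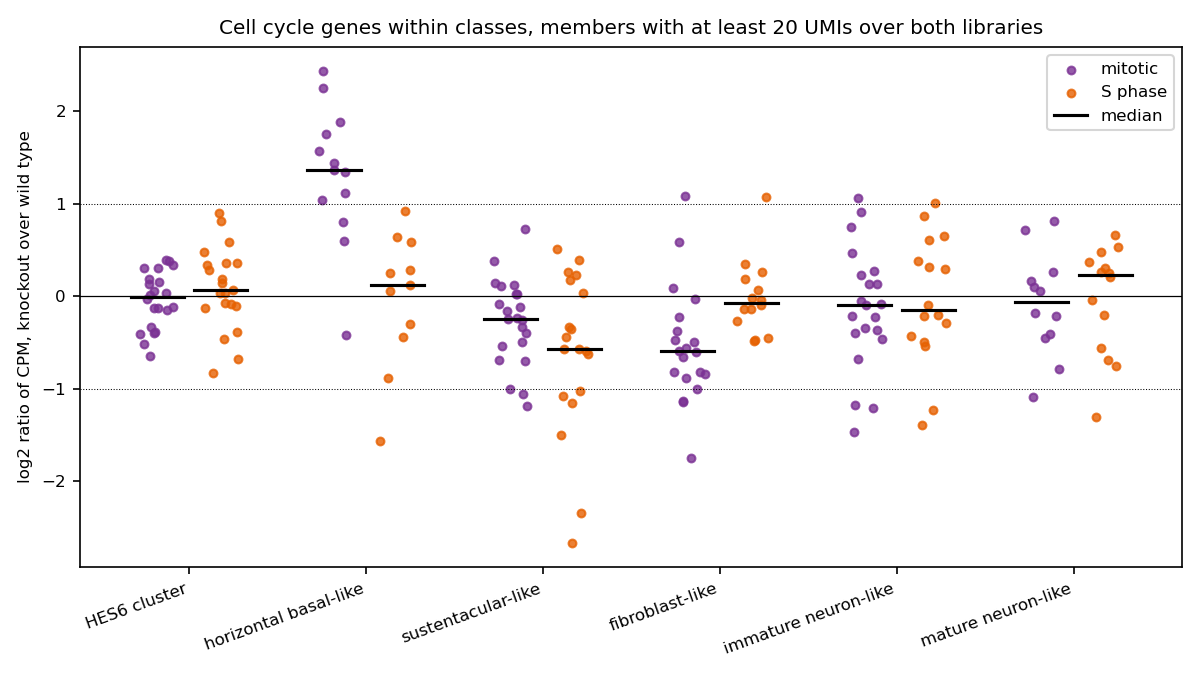
Log2 ratio of knockout over wild type CPM for each member with at least 20 UMIs over both libraries (points), in 6 classes, with the median of each phase as a bar. Points of the HES6 cluster lie within 1 of 0, and mitotic genes in horizontal basal-like nuclei have a median of 1.36.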

How the data were processed

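Single nuclei of 1 wild type and 1 CFTR knockout library were profiled. The values are the deposited UMI counts per gene and barcode, whole numbers before normalization. Per the submitters' processing notes, Cell Ranger, Seurat 4.0 and R 4.0.2 were used by the authors; aligner, genome build and annotation are not stated in the labels or tables. No deposited barcode was below 500 UMIs. The wild type table held 4715 barcodes and 18731495 UMIs, the knockout one 6054 barcodes and 16623086 UMIs.

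Nuclei with under 200 genes (1 wild type) were left out. Scrublet scores in scanpy 1.11.5 (Python 3.11.15) ranked the nuclei, and 178 and 293 were removed as doublets at 0.8% per 1000 nuclei. Leiden clustering at resolution 1 used 2000 variable genes, 30 principal components and 15 neighbours, without cell cycle, centriole and mitochondrial genes and CFTR. A cluster was named from at least 3 markers, as X-like, and differences from other groupings of these nuclei may come from these rebuilt names.

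UMIs were summed per class and library (CPM, 95% Poisson intervals). Ratios were called at 2-fold with at least 20 UMIs over both arms, and an arm at 0 was set to 3 counts. Intervals of ratios are exact conditional binomial and of shares Clopper-Pearson, and all cover counting error only. The ratio calls were tested on simulated data. With 1 library per genotype no p-value is given.

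The members and lists were chosen with earlier results of these data known. Named with values are the 5 largest ratios per phase and comparison, members with at least 10 UMIs and 2-fold in ciliated-like nuclei, members at 50% or more of the HES6 cluster level in mature neuron-like nuclei, members whose interval between libraries excluded 1, and TOP2A, CDK1, PCNA, EZH2 and MYBL1 always. Other members are given to show their role or chosen after their values were seen. Alternatives were the clustering, thinning depth, gene and UMI minimums, doublets kept and TMM scaling (edgeR 4.0.16).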

Additional observations from a re-analysis of the deposited data

Results flagged for a closer look

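Several members had ratios of knockout over wild type past 2-fold in opposite directions in different classes, with a counting interval that excluded 1. Each class is represented by 1 library per genotype, and none of the differences between classes was tested. Few nuclei supplied part of these counts. In knockout horizontal basal-like nuclei, 7 of 205 held 70.4% of the mitotic UMIs, and membership of that class moved with the clustering. In gland-like nuclei, 3 of 209 wild type and 2 of 196 knockout nuclei held 37.0% and 36.8%. The intervals treat UMIs of the same nucleus as independent and so understate the spread. KIF11, the spindle motor, had a log2 ratio of 1.36 in horizontal basal-like and -1.84 in gland-like nuclei. ECT2, the cytokinesis activator, stood at 1.34 in glia-like and 1.18 in macrophage-like nuclei and at -1.28 in microvillar or ionocyte-like nuclei. DIAPH3, the formin, stood at 2.44 in horizontal basal-like nuclei and at -1.13 in fibroblast-like, -1.18 in immature neuron-like and -1.06 in sustentacular-like nuclei. BLM, the repair helicase, stood at 1.07 in fibroblast-like and -1.58 in gland-like nuclei.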

How the results depend on the processing

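No paired analysis was possible because each genotype has 1 library. The requirement of at least 5 genes and the removal of KIF23 and ATAD2 were chosen after seeing the data. Values below give wild type, then knockout. The share of HES6 cluster nuclei with mitotic genes (47.7% and 49.5%) was 68.8% and 67.3% without thinning, 58.3% and 64.2% at 2000 UMIs, 63.2% and 64.9% with at least 1 gene, 38.1% and 38.1% with at least 3, and 25.2% and 23.7% with at least 5. It was 62.6% in knockout when all variable genes were clustered. The S phase share there (37.4% and 47.4%) was, in the same order, 74.5% and 74.5%, 56.8% and 64.2%, 65.2% and 68.0%, 20.6% and 30.9%, and 5.81% and 9.28%. The mitotic share of ciliated-like nuclei (12.9% and 6.29%) was 74.2% and 43.6%, 36.7% and 18%, 51.6% and 34.9%, 3.23% and 1.95%, and 0% and 0.217%, and 3.47% in knockout without KIF23. The S phase share of sustentacular-like nuclei (21.4% and 20.3%) was 54.0% and 51.3%, 43.3% and 41.0%, 61.5% and 56%, 7.40% and 4.70%, and 1.08% and 0.696%, and 10.9% and 10.6% without ATAD2. These shares move with the depth and with the number of genes required by construction. In the knockout library, S phase genes higher in ciliated-like nuclei went from 5 to 12 of 22 with no UMI minimum and to 3 of 13 with TMM scaling, those in sustentacular-like nuclei from 7 to 14 of 23 with no minimum, and mitotic genes in sustentacular-like nuclei from 17 to 5 of 13 with all variable genes. Members differing between libraries went from 9 to 4 of 31 in sustentacular-like and from 11 to 2 of 11 in horizontal basal-like nuclei with at least 50 UMIs required. The members no longer counted had under 50 UMIs, so most of these 2-fold differences lay in members with few UMIs. Over all alternatives to these results, 50 values moved and 94 stayed within the counting interval or, for counts, 1.5 times. At resolution 0.5 no cluster took the name horizontal basal-like. TMM scaling moved the median of all genes by -0.33 and -0.28 (log2) for the HES6 cluster over mature neuron-like nuclei and by -0.29 and -0.25 for ciliated-like nuclei, and by -0.07 between libraries in the HES6 cluster. Depth limits the S phase genes with under 20 UMIs, for which no ratio was called.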
